A study of Mus musculus with 12 samples.

Results

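The subject here is a set of 10 genes of the endoplasmic reticulum (ER), its chaperones and the targets of its stress response: Hspa5, Hyou1, Sdf2l1, Hsp90b1, Calr, Pdia4, Pdia6, Creld2, Manf and Herpud1. They were chosen by symbol from the 40406 gene entries of the count table, and all 10 passed the filter on low counts. Their RNA was measured in 4T1 cells, a triple-negative mouse mammary carcinoma line of the BALB/c strain, labelled wild type or knockout for Itgb3, which encodes integrin β3. Both genotypes were given the solvent DMSO or 10 nM of the microtubule-stabilising taxane docetaxel over 24 h, with harvest 48 h after the drug was removed. The 4 groups are called wild-type DMSO, wild-type docetaxel, knockout-labelled DMSO and knockout-labelled docetaxel, with 3 libraries from separate cultures in each. How the knockout was made, and whether it is 1 clone or a pool, was not found in the labels.

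Secreted and membrane proteins fold in the ER with the help of chaperones that hold unfolded chains, enzymes that form disulphide bonds and lectins that read their sugars. When unfolded protein accumulates, the sensors IRE1, PERK and ATF6 start the unfolded protein response. ATF6, and the spliced form of XBP1 that IRE1 makes, raise the transcription of chaperones and of the machinery that degrades misfolded protein. PERK phosphorylates the initiation factor eIF2α, which lowers general translation and favours that of ATF4, and ATF4 in turn raises amino acid synthesis genes, Trib3 and Ddit3, which encodes CHOP. Other kinases that phosphorylate eIF2α feed into ATF4 as well. ATF6 and XBP1 act at the ER stress response element (ERSE), in which the factor NF-Y takes the CCAAT end and ATF6 or XBP1 the CCACG end, and at a shorter second form, ERSE-II.

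The promoters of the members are shown first, for this element and its second form. Any link between the form held and the response to docetaxel was not tested. Promoters of 8 members, 250 bases before to 50 after the start, were matched by symbol in a RefSeq table on GRCm38.p6, and Hyou1 and Manf are named only. ERSE was searched on both strands as CCAAT, 9 bases of any kind and CCACG, and ERSE-II as ATTGGNCCACG, which contains the CCACG end and, on the other strand, a CCAAT. The elements found are printed 5′ to 3′ on the strand that reads in this order, with 5 bases on either side and the fixed letters in capitals, and positions count from the RefSeq start.
Hspa5, −65 to −47: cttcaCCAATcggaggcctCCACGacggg
Hsp90b1, −212 to −194: caagcCCAATcgcaaggagCCACGcttcg
Hsp90b1, −107 to −89, other strand: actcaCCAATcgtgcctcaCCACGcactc
Calr, −162 to −144, other strand: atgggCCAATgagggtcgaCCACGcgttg
Pdia6, −98 to −80: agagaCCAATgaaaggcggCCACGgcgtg
Creld2, −126 to −108, other strand: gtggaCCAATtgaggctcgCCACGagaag
Herpud1, −52 to −42, ERSE-II: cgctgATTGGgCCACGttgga

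In all, 5 of the 8 promoters held ERSE letter for letter, and Hsp90b1 held 2 copies. The Hspa5 element lies before the RefSeq start but, unlike the others printed, inside an exon of the gene as annotated by GENCODE. Among all 32851 promoters in the table, 0.119% held ERSE, 0.0365% ERSE-II, 37.4% a CCAAT and 32.8% a CCACG. The best match in Pdia4 had 9 of the 10 fixed letters, a level that 1.5% of promoters reach, and the best in Sdf2l1 had 8, which 17.9% reach. The members were chosen as chaperones and targets of the response that acts through this element, so their share beside that of all promoters tests nothing. A match is a description of the letters in this window, and nothing follows from its absence. The whole stretch upstream of the annotated gene is given for 4 members, in the direction of the gene, with ERSE or ERSE-II in capitals: Hsp90b1 for its 2 copies, Calr as the most changed member with the element, Herpud1 for ERSE-II, and Sdf2l1, which changed most in wild-type cells without a full element.
Hsp90b1, chr10:86705510-86705694, minus strand: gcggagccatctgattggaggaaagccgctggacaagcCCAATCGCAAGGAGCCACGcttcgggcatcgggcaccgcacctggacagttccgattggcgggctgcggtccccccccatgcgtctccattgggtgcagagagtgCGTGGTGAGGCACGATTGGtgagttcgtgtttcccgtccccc
Calr, chr8:84846935-84847181, minus strand: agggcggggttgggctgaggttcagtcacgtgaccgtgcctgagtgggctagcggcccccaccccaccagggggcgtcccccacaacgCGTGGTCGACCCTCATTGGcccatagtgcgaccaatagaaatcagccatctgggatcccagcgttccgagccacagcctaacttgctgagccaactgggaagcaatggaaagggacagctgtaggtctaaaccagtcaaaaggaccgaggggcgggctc
Herpud1, chr8:94386179-94386428, plus strand: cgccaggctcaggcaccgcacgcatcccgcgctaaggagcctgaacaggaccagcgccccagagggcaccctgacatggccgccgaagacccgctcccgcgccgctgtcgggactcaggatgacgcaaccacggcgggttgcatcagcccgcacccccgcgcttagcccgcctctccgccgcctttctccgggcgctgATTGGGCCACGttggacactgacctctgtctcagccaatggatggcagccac
Sdf2l1, chr16:17132384-17132633, minus strand: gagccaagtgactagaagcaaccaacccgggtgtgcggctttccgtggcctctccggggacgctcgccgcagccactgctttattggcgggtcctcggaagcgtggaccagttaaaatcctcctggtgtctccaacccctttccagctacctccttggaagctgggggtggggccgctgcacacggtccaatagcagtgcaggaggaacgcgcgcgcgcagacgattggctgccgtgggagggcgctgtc

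Total counts ran from 28729118 to 40801679 per library, and 15538 genes were tested. Itgb3 RNA, compared as knockout-labelled minus wild type on the log2 scale, was at −0.03 ± 0.08 under DMSO and not called lower (SE; edgeR BH-adjusted p = 0.874), and was lower after docetaxel by −0.41 ± 0.08 (edgeR BH-adjusted p = 0.00765), so every genotype direction rests on the labels. The title and genotype of wild-type DMSO library 1 say wild type, but its description names the knockout. Gm23935, a short feature annotated as a microRNA gene, took a share of all counts of 0.435% to 3.98% in wild-type DMSO, 0.294% to 1.51% in the knockout-labelled docetaxel libraries and 0.137% to 0.22% in the other 6. Gm26917 took a larger share, 7.07% to 11.5% in wild-type DMSO and 7.75% to 10.9% in wild-type docetaxel libraries. Its share was 9.06% to 9.33% in knockout-labelled DMSO and 7.37% to 11.9% in knockout-labelled docetaxel libraries. Levels are in CPM, a gene's counts as a share of all counts in the library, times 1000000. The marker levels in this paragraph have no further scaling. The CPM values of the members and other named genes are scaled by the trimmed mean of M values (TMM). The summed level of the 6 epithelial markers was 2673 to 3625 CPM, that of the 6 leukocyte markers 1.42 to 4.69 CPM and that of the 4 endothelial markers 0.101 to 0.76 CPM. The 5 fibroblast markers summed to 28.2 to 29.4 CPM in wild-type DMSO, 19.4 to 22.5 in wild-type docetaxel, 14.6 to 18.6 in knockout-labelled DMSO and 12.2 to 16.0 CPM in knockout-labelled docetaxel libraries. Nearly all of that sum was Pdgfra, while Lum had no count in any library and Dcn at most 2. Of the receptors that a triple-negative line lacks, Pgr had at most 4 counts in any library, but Esr1 was at 24.6 to 42.7 CPM and Erbb2 at 84.7 to 119 CPM as group means. The part of these features in the results was not tested, and the results that rest on wild-type DMSO library 1 or on the Gm23935-rich libraries are also given without them.

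Docetaxel raised most of the set in wild-type cells. In the test across all genes, 8 of the 10 members were higher at a p under 0.05 after Benjamini-Hochberg (BH) adjustment over all genes and 1, Herpud1, was lower, while Pdia4 was not called. Over all 15538 tested genes 14.5% were called higher and 13.8% lower. The median log2 fold change of the members was 0.72, against 0.02 over all tested genes. In knockout-labelled cells 6 of the 10 members were higher and none lower, where 9.09% of all tested genes were higher and 7.00% lower, and the members' median was 0.50 against 0.00. At an unadjusted p under 0.05 in edgeR, 8 members were higher and 0 lower there, and DESeq2 and limma-voom each called 6 higher and 0 lower. The shares of all tested genes are at an adjusted p, and counts at an unadjusted p, here and below, have no such share beside them. The share of higher calls among all calls was 56.5% in knockout-labelled cells, and 45.3% with upper-quartile scaling. The libraries of the 2 treatments did not overlap, with docetaxel above DMSO, for 9 members in wild-type cells and 8 in the knockout-labelled ones, against 21.2% and 19.2% of all tested genes. Summed over the 10 genes, the level was 1749.6 ± 125 CPM in wild-type DMSO, 2757 ± 121 in wild-type docetaxel, 1618 ± 68.2 in knockout-labelled DMSO and 2292 ± 48.1 CPM in knockout-labelled docetaxel libraries (SD, n = 3). A bulk library does not separate less RNA per cell from fewer cells of a type.

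**Figure D1:**
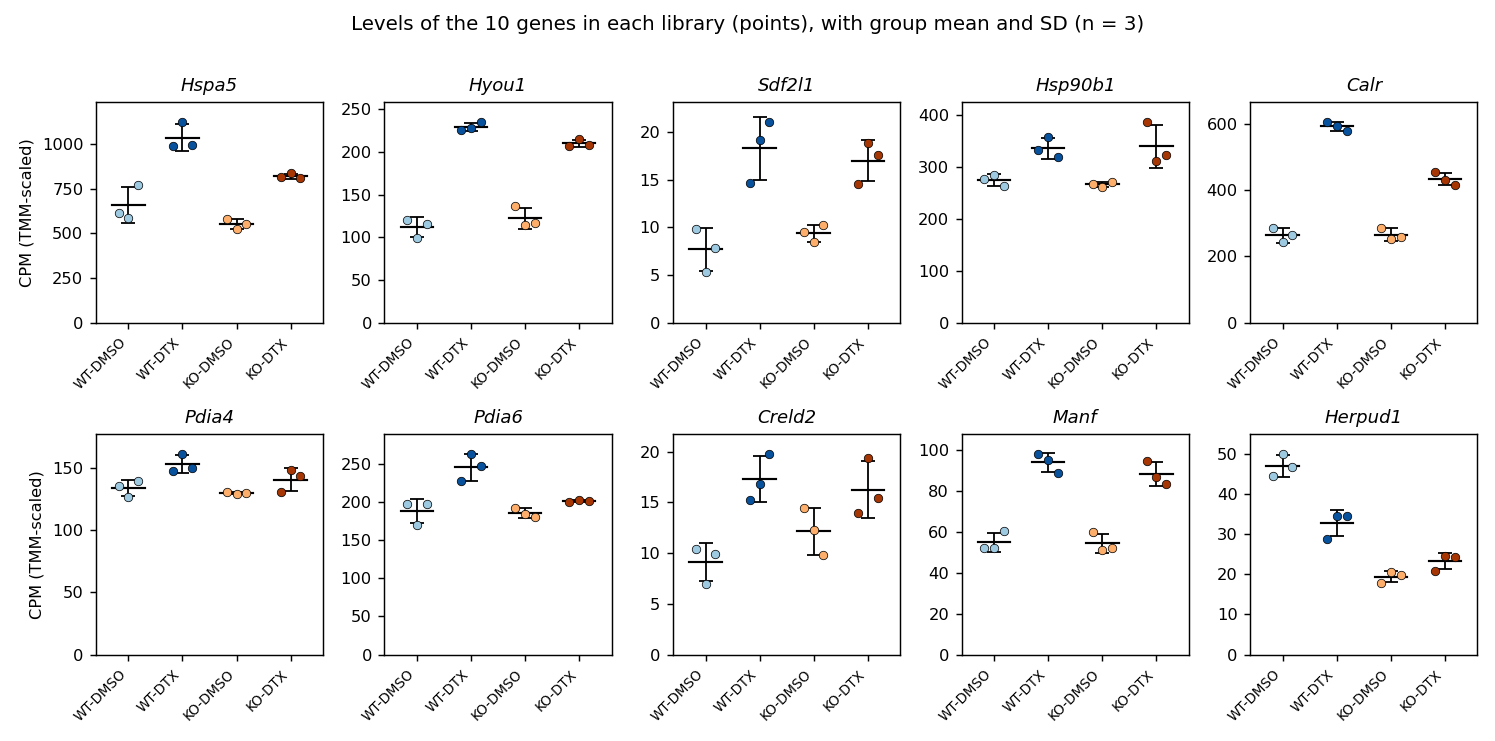
Level of each of the 10 genes in CPM (vertical axis, from 0) in the 12 libraries (points), with the mean and SD of each group of 3. For Calr the wild-type docetaxel libraries sit at 578 to 607 CPM, above all other groups, and for Herpud1 the wild-type DMSO libraries are the highest.

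The HSP70 system of the ER came first by level. Hspa5 (ENSMUSG00000026864.13, chromosome 2, 34771970 to 34777547, plus strand) encodes BiP, the ER HSP70 that binds unfolded chains and holds the stress sensors inactive. It was at 615, 588 and 772 CPM in wild-type cells under DMSO, and at 988, 1124 and 997 CPM after docetaxel. The knockout-labelled libraries were at 579, 526 and 551 CPM under DMSO and 816, 837 and 809.8 CPM after docetaxel. Every docetaxel library lay above every DMSO library, of either genotype. The log2 fold change was 0.66 ± 0.10 in wild-type cells (SE; edgeR BH-adjusted p = 0.000501) and 0.57 ± 0.10 in knockout-labelled cells (edgeR BH-adjusted p = 0.00192). Per kilobase of exon, Hspa5 was the most abundant member in each group, at 156 CPM per kb in wild-type DMSO, ahead of Calr at 91.8 and Hsp90b1 at 68.2 CPM per kb.

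Hyou1 (ENSMUSG00000032115.14, chromosome 9, 44379490 to 44392369, plus strand) encodes GRP170, a large HSP70-like protein that exchanges nucleotide on BiP. Its levels were 121, 98.8 and 116 CPM in wild-type DMSO and 226, 228 and 235 CPM in wild-type docetaxel libraries. They were 137, 114 and 117 CPM in knockout-labelled DMSO and 207, 215 and 208 CPM in knockout-labelled docetaxel libraries. The rise was 2.06-fold in wild-type cells, or on the log2 scale 1.04 ± 0.09 (edgeR BH-adjusted p = 6.28e-06), and 0.78 ± 0.09 in knockout-labelled cells (edgeR BH-adjusted p = 6.13e-05). Sdf2l1 (ENSMUSG00000022769.9, chromosome 16, 17130138 to 17132383, minus strand) encodes a small protein that works with ER J-domain cofactors of BiP. It was at 9.87, 5.33 and 7.87 CPM in wild-type DMSO and 14.7, 19.2 and 21.1 CPM in wild-type docetaxel libraries, the largest log2 fold change among the members at 1.25 ± 0.19 (edgeR BH-adjusted p = 0.000473). Wild-type DMSO library 2, with 155 counts of Sdf2l1, was the lowest of the 12. In knockout-labelled cells Sdf2l1 went from 9.50, 8.47 and 10.2 to 14.6, 18.9 and 17.6 CPM, a log2 fold change of 0.85 ± 0.19 (edgeR BH-adjusted p = 0.00801).

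Hsp90b1 (ENSMUSG00000020048.13, chromosome 10, 86690209 to 86705509, minus strand) encodes GRP94, the ER HSP90, which folds integrins and toll-like receptors among other clients. Its levels were 278, 284 and 262 CPM in wild-type DMSO and 332, 358 and 318 CPM in wild-type docetaxel libraries. They were 266, 262 and 271 CPM in knockout-labelled DMSO and 387, 310.4 and 322 CPM in knockout-labelled docetaxel libraries. This was one of the smaller changes of the set, although the promoter holds 2 copies of ERSE: the log2 fold change was 0.29 ± 0.09 in wild-type cells (edgeR BH-adjusted p = 0.0253) and 0.35 ± 0.09 in knockout-labelled cells (edgeR BH-adjusted p = 0.0159). Both calls were lost when single libraries were left out. The adjusted p in wild-type cells was 0.0833, 0.0576 and 0.0975 without wild-type DMSO library 3, wild-type docetaxel library 1 or library 2. In knockout-labelled cells it was 0.0518, 0.0681 and 0.0511 without DMSO library 1, 2 or 3, and 0.0651 without docetaxel library 1. The annotated gene also overlaps 3 others (1810014B01Rik, Gm15344 and Gm25745), whose reads the deposited counts may not separate.

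Calr (ENSMUSG00000003814.8, chromosome 8, 84841850 to 84846934, minus strand) encodes calreticulin, a lectin chaperone and calcium store of the ER lumen. Under DMSO the genotypes were in the same range, at 288, 242 and 264 CPM in wild-type and 287, 252 and 260.3 CPM in knockout-labelled libraries. After docetaxel Calr reached 607, 596 and 578 CPM in wild-type and 455, 432 and 417 CPM in knockout-labelled libraries. The 2 docetaxel groups did not overlap with each other or with DMSO. The log2 fold change was 1.17 ± 0.09 in wild-type cells (edgeR BH-adjusted p = 1.62e-06) and 0.71 ± 0.08 in knockout-labelled cells (edgeR BH-adjusted p = 7.41e-05). Its membrane-bound relative Canx, on the list of lectin chaperones and glucosidases, was not called in either genotype, at 0.01 and 0.06, though its promoter holds ERSE as well.

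The disulphide isomerases changed less than the HSP70 system or Calr. Pdia4 (ENSMUSG00000025823.9, chromosome 6, 47796141 to 47813430, minus strand) encodes ERp72 and Pdia6 (ENSMUSG00000020571.12, chromosome 12, 17266545 to 17284770, plus strand) encodes P5, both of which form and reshuffle disulphide bonds. Pdia4 was at 136, 127 and 139 CPM in wild-type DMSO, 147, 161 and 150.2 CPM in wild-type docetaxel, 131, 129 and 129.9 CPM in knockout-labelled DMSO and 131, 148 and 143 CPM in knockout-labelled docetaxel libraries. Its log2 fold change of 0.19 ± 0.08 in wild-type cells was not called (edgeR BH-adjusted p = 0.0709), although the libraries did not overlap, and was called by DESeq2 (adjusted p = 0.0464) and with a filter of at least 1 CPM in 3 libraries (edgeR BH-adjusted p = 0.0356). In knockout-labelled cells the value was 0.11 ± 0.07 (edgeR BH-adjusted p = 0.335) and the libraries overlapped.

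Pdia6 was at 197, 169.9 and 197 CPM in wild-type DMSO and 227, 263 and 247 CPM in wild-type docetaxel libraries, a log2 fold change of 0.39 ± 0.08 (edgeR BH-adjusted p = 0.00346). In knockout-labelled cells it was at 192, 185 and 179.8 CPM under DMSO and 199.9, 203 and 201 CPM after docetaxel. All 3 docetaxel libraries were above the DMSO libraries there too, but the difference of 0.12 ± 0.08 was not called (edgeR BH-adjusted p = 0.352). Mir704 lies within Pdia4 on the same strand, and Atp6v1c2 reaches Pdia6 on the opposite strand, where reads are separated only if the counting used strand, so these values are uncertain. Creld2 (ENSMUSG00000023272.4, chromosome 15, 88819646 to 88826683, plus strand) encodes a secreted protein with isomerase activity that ER stress induces. Its levels were 10.4, 6.95 and 9.96 CPM in wild-type DMSO and 15.3, 16.9 and 19.8 CPM in wild-type docetaxel libraries, a log2 fold change of 0.93 ± 0.18 (edgeR BH-adjusted p = 0.0023). In knockout-labelled cells they were 14.4, 12.3 and 9.78 CPM under DMSO and 14.0, 19.4 and 15.4 CPM after docetaxel. These overlapped, and the value of 0.42 ± 0.18 was not called (edgeR BH-adjusted p = 0.129), but it was 0.50 and called after correction for GC content (edgeR BH-adjusted p = 0.0311).

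Manf (ENSMUSG00000032575.16, chromosome 9, 106838312 to 106891979, minus strand) encodes a small ER protein that binds BiP and is secreted under stress. It was at 52.4, 52.1 and 60.4 CPM in wild-type DMSO and 98.2, 95.5 and 88.9 CPM in wild-type docetaxel libraries. The knockout-labelled libraries were at 59.8, 51.4 and 52.1 CPM under DMSO and 94.9, 86.7 and 83.4 CPM after docetaxel. The docetaxel and DMSO libraries did not overlap in either genotype. The log2 fold changes were 0.78 ± 0.09 (edgeR BH-adjusted p = 6.95e-05) and 0.70 ± 0.09 (edgeR BH-adjusted p = 0.000157), and they differed by −0.08 ± 0.13 (edgeR BH-adjusted p = 0.851). The annotated gene overlaps 4 others, Dcaf1 and Rbm15b among them, which makes its level uncertain.

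Herpud1 (ENSMUSG00000031770.16, chromosome 8, 94386438 to 94395377, plus strand) was the exception. It encodes HERP, a membrane protein that organises the complex for degradation of misfolded ER proteins, and it is known as a target of ATF4 as well as of ATF6 and XBP1. Herpud1 was at 44.6, 49.9 and 46.6 CPM in wild-type DMSO and fell to 28.9, 34.6 and 34.5 CPM in wild-type docetaxel libraries. The knockout-labelled libraries were at 17.9, 20.5 and 19.9 CPM under DMSO and 20.9, 24.6 and 24.4 CPM after docetaxel. The 4 groups did not overlap, in the order wild-type DMSO, wild-type docetaxel, knockout-labelled docetaxel and knockout-labelled DMSO, although the test did not call the difference between the last 2. The log2 fold change was −0.53 ± 0.10 in wild-type cells (edgeR BH-adjusted p = 0.00194) and 0.26 ± 0.10 in knockout-labelled cells (edgeR BH-adjusted p = 0.0993), where it was called after correction for GC content (0.32, edgeR BH-adjusted p = 0.0268). The antisense gene Gm15890 overlaps an exon of Herpud1, and no source used here gives the strand setting of the counting.

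**Figure D2:**
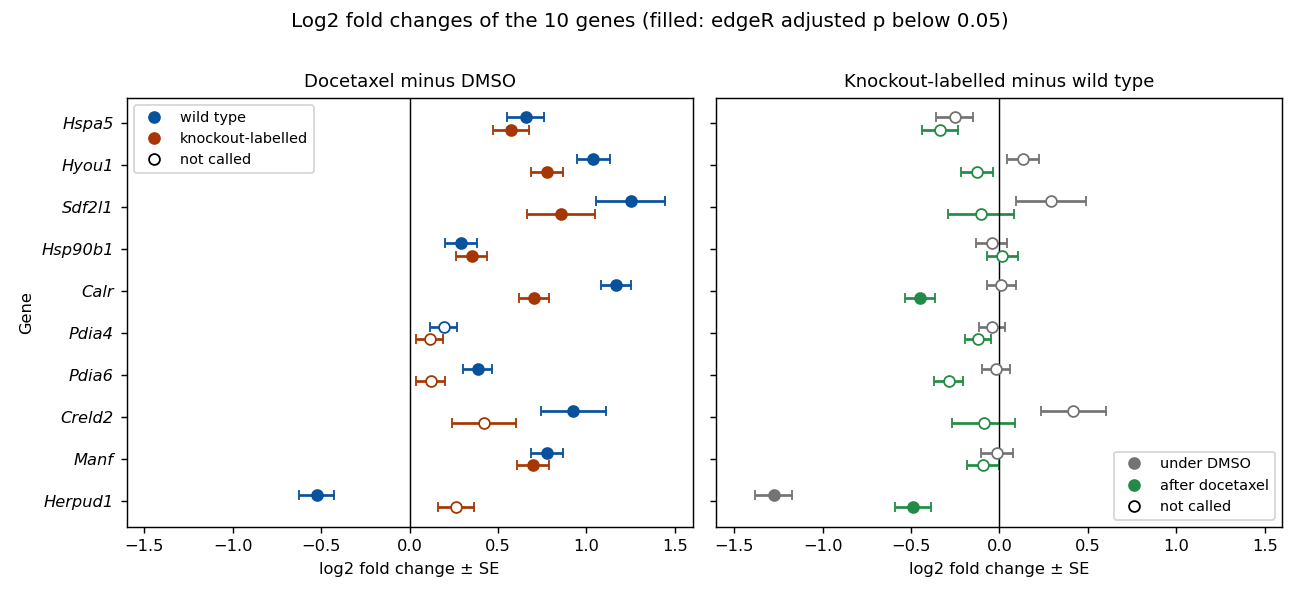
Log2 fold change ± SE of the 10 genes (rows) for docetaxel minus DMSO in each genotype (left) and for knockout-labelled minus wild type under each treatment (right), with filled points for an edgeR BH-adjusted p below 0.05. Herpud1 stands to the left of 0 in wild-type cells at −0.53 and at −1.28 between the genotypes under DMSO, while the other 9 genes lie at or above 0.11 for docetaxel in both genotypes.

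Between the genotypes under DMSO, the large difference within the set was that of Herpud1. Herpud1 was the 1 member called, at −1.28 ± 0.10 for knockout-labelled minus wild type on the log2 scale (edgeR BH-adjusted p = 2.41e-06), and no member was called higher by edgeR, DESeq2 or limma-voom (1 at an unadjusted p under 0.05 in edgeR). Over all tested genes 6.60% were called higher and 9.20% lower. The differences of the other 9 ran from −0.25 ± 0.10 for Hspa5 (edgeR BH-adjusted p = 0.111), whose 3 knockout-labelled libraries were all below the wild-type ones, to 0.42 ± 0.18 for Creld2 (edgeR BH-adjusted p = 0.147). The libraries of the 2 genotypes did not overlap for 2 members, both lower, against 32.6% of all tested genes in either direction. The members' median was −0.02. Creld2 was called when no filter on low counts was used (edgeR BH-adjusted p = 0.0397).

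After docetaxel 2 members were called, both lower in knockout-labelled cells, against 3.39% of all tested genes called lower and 2.50% higher. These were Calr, at −0.45 ± 0.08 (edgeR BH-adjusted p = 0.00512), and Herpud1, at −0.49 ± 0.10 (edgeR BH-adjusted p = 0.00978). The Herpud1 call was lost without wild-type docetaxel library 2 (edgeR BH-adjusted p = 0.0545) or 3 (edgeR BH-adjusted p = 0.0677). The libraries of the 2 genotypes did not overlap for 5 members, all lower, against 25.1% of all tested genes in either direction. Pdia6, at −0.29 ± 0.08 (edgeR BH-adjusted p = 0.0541), and Hspa5, at −0.34 ± 0.10 (edgeR BH-adjusted p = 0.0738), were among these 5 and missed the threshold. Both were called by DESeq2 (adjusted p = 0.0145 and 0.0255) and with upper-quartile scaling (edgeR BH-adjusted p = 0.037 and 0.0491). Hyou1 was also lower in all 3 knockout-labelled libraries, but at −0.13 ± 0.09 it was not called (edgeR BH-adjusted p = 0.513). The remaining 5 members lay between −0.12 and 0.02.

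The test of whether docetaxel acted differently in the 2 genotypes called none of the 10 members at an adjusted p under 0.05, against 0.109% of all tested genes. At an unadjusted p under 0.05, 3 members passed in edgeR, and limma-voom called 0 after adjustment. The 0.109% is a share at the adjusted p and is no background for these 3. The difference of effects, knockout-labelled minus wild type, was largest for Herpud1, at 0.79 ± 0.14 (edgeR BH-adjusted p = 0.0529), and next for Creld2, at −0.51 ± 0.26 (edgeR BH-adjusted p = 0.473), and Calr, at −0.46 ± 0.12 (edgeR BH-adjusted p = 0.191). DESeq2 called Herpud1 (0.80, adjusted p = 0.00025) and Calr (−0.45, adjusted p = 0.0261). Herpud1 was also called with RLE scaling (edgeR BH-adjusted p = 0.0475), with no filter on low counts (0.00087), after correction for GC content (0.0171), without wild-type DMSO library 1 (0.0155) and without knockout-labelled docetaxel library 1 (0.0299). Without wild-type DMSO library 1 Calr was called too, at −0.53 (edgeR BH-adjusted p = 0.0317). The values for the remaining members ran from −0.40 for Sdf2l1 to 0.06 for Hsp90b1.

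The counts of members were the same with the doubted libraries left out, except after docetaxel and for the interaction. Without wild-type DMSO library 1, 8 members were higher and 1 lower in wild-type cells, 6 higher in knockout-labelled cells, 1 lower under DMSO, 3 lower after docetaxel and 2 called in the interaction. Over all genes, the interaction called 431 without this library, against 17 in the main fit. The log2 fold changes in wild-type cells then ran from 0.20 for Pdia4 to 1.47 for Sdf2l1, with Herpud1 at −0.56. Without the 2 Gm23935-rich libraries, which leaves wild-type DMSO library 1 in, the counts were 8 higher and 1 lower, 6 higher, 1 lower, 2 lower and 0. The wild-type values then ran from 0.15 for Pdia4 to 1.11 for Calr, with Herpud1 at −0.48. Sdf2l1 was at 1.04 there, below Calr.

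The sensors and transcription factors of the response did not follow the chaperones. Among all tested genes, 14.5% were called higher and 13.8% lower after docetaxel in wild-type cells. In knockout-labelled cells these shares were 9.09% and 7.00%, and they stand beside this list and those below. Of 13 listed genes 12 were tested, and docetaxel raised 1 and lowered 5 in wild-type cells, with a median of −0.11. In knockout-labelled cells it lowered 3 and raised 0 by edgeR or limma-voom, with a median of 0.03, and 1 was higher at an unadjusted p under 0.05 and by DESeq2. Xbp1, the target of IRE1 splicing, was at 66.2, 104 and 93.2 CPM in wild-type DMSO, 67.6, 67.8 and 66.2 in wild-type docetaxel, 45.6, 50 and 50 in knockout-labelled DMSO and 56.8, 46.6 and 54.8 CPM in knockout-labelled docetaxel libraries. Gene counts do not separate the spliced from the unspliced form. Ern1, which encodes IRE1α, was at 91.9, 106 and 108 CPM in wild-type DMSO, 90.2, 84.8 and 85.8 in wild-type docetaxel, 58.0, 56.4 and 56.0 in knockout-labelled DMSO and 55.2, 56.7 and 51.8 CPM in knockout-labelled docetaxel libraries. Both were lower in knockout-labelled cells under DMSO, Xbp1 by −0.85 ± 0.13 (edgeR BH-adjusted p = 0.000696) and Ern1 by −0.84 ± 0.08 (edgeR BH-adjusted p = 1.01e-05). Ern1 was also lower after docetaxel, by −0.67 ± 0.08 (edgeR BH-adjusted p = 0.000115), and Xbp1 was not called there (−0.35 ± 0.13, edgeR BH-adjusted p = 0.162).

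The docetaxel changes of this pair in wild-type cells, −0.38 ± 0.13 for Xbp1 (edgeR BH-adjusted p = 0.0424) and −0.23 ± 0.08 for Ern1 (edgeR BH-adjusted p = 0.0417), sat near the threshold and were lost in 14 and 13 of the 23 other fits. Without wild-type DMSO library 2 the values were −0.25 and −0.20 (edgeR BH-adjusted p = 0.179 and 0.108). Atf6 and Eif2ak3, which encodes PERK, were not called in any contrast. Atf6b, a relative of Atf6 with weaker activity, rose in wild-type cells from 73.8, 50.8 and 67.0 to 95.4, 98.9 and 96.7 CPM, a log2 fold change of 0.60 ± 0.12 (edgeR BH-adjusted p = 0.00215). Creb3l2, a related membrane-bound factor, was lower in knockout-labelled cells under DMSO by −0.64 ± 0.11 and after docetaxel by −0.58 ± 0.11 (edgeR BH-adjusted p = 0.00102 and 0.00444).

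The PERK-ATF4-CHOP arm moved the other way from the chaperones in wild-type cells. Of its 17 listed genes, all tested, docetaxel lowered 11 and raised 1, Atf3, and the median log2 fold change was −0.84. In knockout-labelled cells it lowered 2, Trib3 and Ddit4, and raised 2, Atf3 and Ppp1r15a, with a median of −0.02. Under DMSO 12 of the 17 were lower and 1 higher in knockout-labelled than in wild-type cells, with a median of −0.85. Of all tested genes, 9.20% were called lower and 6.60% higher in that contrast. After docetaxel 1 of the 17 was lower, against 3.39% of all tested genes. The wild-type docetaxel contrast and the genotype contrast under DMSO share the 3 wild-type DMSO libraries, in which these genes were high. Over the alternatives the number called lower ran from 9 to 11 for docetaxel in wild-type cells and from 10 to 13 between the genotypes under DMSO.

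Atf4 was at 253, 269.6 and 305 CPM in wild-type DMSO, 135, 136 and 149.6 in wild-type docetaxel, 150.5, 134 and 127 in knockout-labelled DMSO and 119.5, 150.4 and 136 CPM in knockout-labelled docetaxel libraries. The 3 wild-type DMSO libraries stood apart and the other 9 overlapped. Docetaxel changed Atf4 by −0.97 ± 0.10 in wild-type cells (edgeR BH-adjusted p = 2.77e-05) and by −0.02 ± 0.10 in knockout-labelled cells (edgeR BH-adjusted p = 0.924), and the effects differed by 0.96 ± 0.14 (edgeR BH-adjusted p = 0.022). Asns, the asparagine synthetase gene that ATF4 activates, had the same shape, at 138, 187 and 165 CPM in wild-type DMSO, 66.5, 73.4 and 76.6 in wild-type docetaxel, 82.0, 86.1 and 78.7 in knockout-labelled DMSO and 80.7, 75.7 and 80.9 CPM in knockout-labelled docetaxel libraries. Its docetaxel effects were −1.18 ± 0.10 and −0.06 ± 0.10 (edgeR BH-adjusted p = 5.62e-06 and 0.755), and they differed by 1.12 ± 0.14 (edgeR BH-adjusted p = 0.00856). The 2 interaction calls in this list were Atf4 and Asns.

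Trib3, a pseudokinase gene downstream of CHOP, was at 91.8, 121 and 175 CPM in wild-type DMSO and 28.0, 37.3 and 33.8 CPM in wild-type docetaxel libraries, and at 52.2, 58.7 and 48.3 CPM in knockout-labelled DMSO and 25.9, 33.5 and 34.1 CPM in knockout-labelled docetaxel libraries. It fell in both genotypes, with log2 fold changes of −1.97 ± 0.20 in wild-type cells (edgeR BH-adjusted p = 1.81e-05) and −0.77 ± 0.19 in knockout-labelled cells (edgeR BH-adjusted p = 0.0149). Ddit3 was at 16.0, 21.3 and 48.3 CPM in wild-type DMSO and between 7.70 and 12.7 CPM in the other 9 libraries. Wild-type DMSO library 3 was the highest for Ddit3 and for Atf5, which was at 32.4, 51.9 and 107 CPM in that group. The wild-type docetaxel change of Ddit3 was −1.35 ± 0.31 (edgeR BH-adjusted p = 0.00573) and of Atf5 −1.66 ± 0.32 (edgeR BH-adjusted p = 0.0022). Without wild-type DMSO library 3 these were −0.74 and −1.06 (edgeR BH-adjusted p = 0.0147 and 0.00467).

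Atf3, a stress factor that other pathways induce as well, rose in both genotypes. It was at 10.0, 10.6 and 13.3 CPM in wild-type DMSO and 19.6, 21 and 22.4 CPM in wild-type docetaxel libraries, and at 6.23, 5.96 and 6.61 CPM in knockout-labelled DMSO and 18.5, 17.8 and 19.3 CPM in knockout-labelled docetaxel libraries. The log2 fold changes were 0.89 ± 0.12 (edgeR BH-adjusted p = 0.000132) and 1.56 ± 0.12 (edgeR BH-adjusted p = 1.46e-06). In the same contrasts, the summed fibroblast markers were at 28.2 to 29.4 CPM in wild-type DMSO libraries and 12.2 to 22.5 CPM in the other 9. Nearly all of this sum was the single gene Pdgfra. The Gm23935 share of the wild-type DMSO libraries, 0.435% to 3.98%, overlapped with that of the knockout-labelled docetaxel libraries, 0.294% to 1.51%. The part of Pdgfra or Gm23935 in the levels of the arm is taken up next. It was not tested. Without wild-type DMSO library 1, 10 of the 17 genes were called lower for docetaxel in wild-type cells and 12 between the genotypes under DMSO, and 8 in place of 2 were called in the interaction. Calls in the interaction over all genes rose as well in that fit, to 431 in place of 17. Without the 2 Gm23935-rich libraries, 11 of the 17 genes were called lower for docetaxel in wild-type cells and 11 between the genotypes under DMSO. The interaction of Atf4 was 0.97 in that fit but no longer called (edgeR BH-adjusted p = 0.129).

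**Figure D3:**
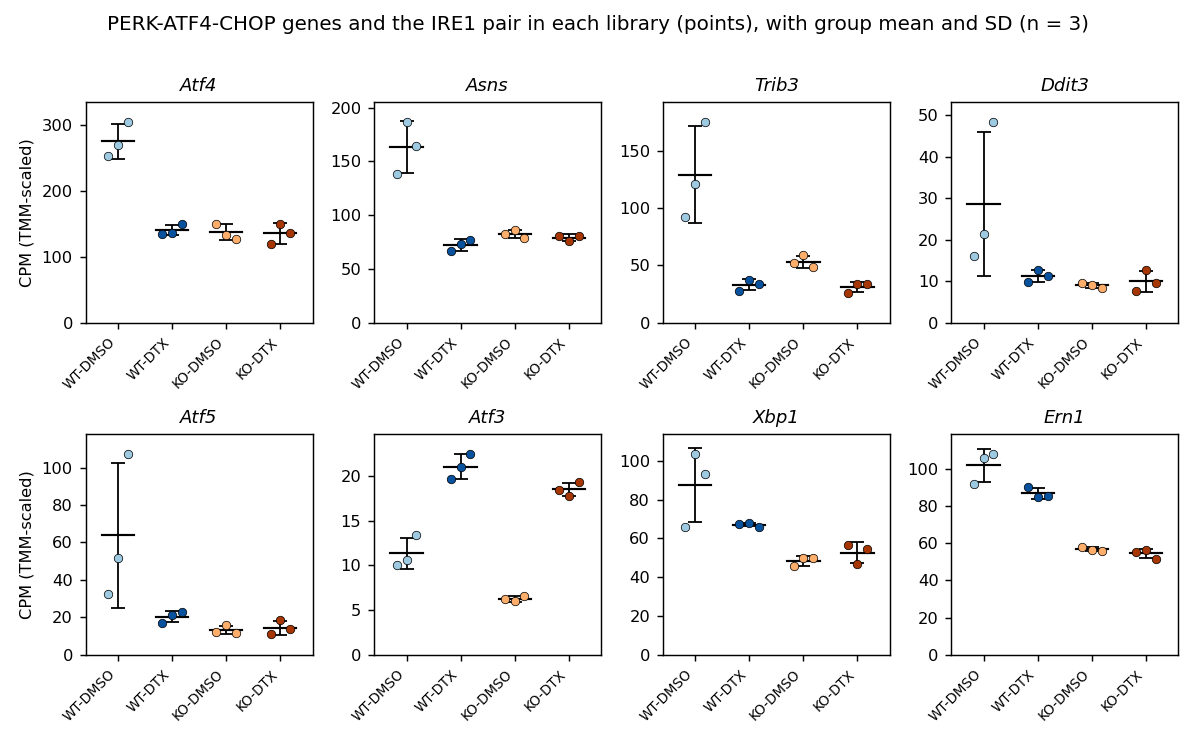
Levels in CPM (vertical axes, from 0) of 6 genes of the PERK-ATF4-CHOP list and of Xbp1 and Ern1 in the 12 libraries (points), with the mean and SD of each group of 3. The wild-type DMSO libraries are highest for Atf4, at 253 to 305 CPM, and for Asns, at 138 to 187 CPM, while Atf3 is higher after docetaxel in both genotypes.

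Among the co-chaperones of the HSP70 system, 13 tested, docetaxel raised 2 and lowered 5 in wild-type cells and raised 1 and lowered 2 in knockout-labelled cells. Dnajb11, the ERdj3 cofactor of BiP, was higher after docetaxel, at 26.4, 14.2 and 21.3 CPM in wild-type DMSO, 46.3, 45.3 and 42.7 in wild-type docetaxel, 31.1, 24.4 and 26.6 in knockout-labelled DMSO and 42.2, 46.9 and 41.3 CPM in knockout-labelled docetaxel libraries. Its log2 fold changes were 1.12 ± 0.17 and 0.67 ± 0.16 (edgeR BH-adjusted p = 0.000362 and 0.0137), and its promoter holds ERSE-II. Dnajb9, the ERdj4 cofactor that IRE1 and XBP1 induce, was not called for docetaxel in either genotype, at −0.09 ± 0.15 and 0.34 ± 0.15 (edgeR BH-adjusted p = 0.684 and 0.154). Creld1, the membrane-bound relative of Creld2, fell in wild-type cells by 0.65 ± 0.16 on the log2 scale (edgeR BH-adjusted p = 0.00788) and was lower in knockout-labelled cells under DMSO by −1.13 ± 0.16 (edgeR BH-adjusted p = 0.000363).

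Other enzymes of oxidative folding were called in both directions, as were all tested genes. Of 15 tested, docetaxel raised 3 and lowered 4 in wild-type and raised 2 and lowered 3 in knockout-labelled cells. Pdia3, the isomerase that partners calreticulin, rose in wild-type cells by 0.36 ± 0.08 (edgeR BH-adjusted p = 0.00578), while the oxidases Ero1l and Qsox1 fell by 0.72 ± 0.13 and 0.70 ± 0.13 on the log2 scale (edgeR BH-adjusted p = 0.00141 and 0.00191). Both oxidases fell in knockout-labelled cells as well, by 0.53 ± 0.13 and 0.47 ± 0.13 (edgeR BH-adjusted p = 0.0148 and 0.0303). Of 8 lectin chaperones and glucosidases, none was called in wild-type cells, at an unadjusted p under 0.05 in edgeR or by DESeq2 or limma-voom, and 1, Uggt1, rose in knockout-labelled cells. Of 9 prolyl isomerases and KDEL receptors tested, it lowered 1 in wild-type cells, Kdelr1, which returns chaperones that carry the KDEL signal to the ER.

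The lists for ER-associated degradation, translocation and export are set beside the 14.5% of all tested genes called higher after docetaxel in wild-type and the 9.09% in knockout-labelled cells. For degradation 7 of 22 genes rose and 1 fell in wild-type cells, and 5 rose in knockout-labelled cells. Syvn1, the ubiquitin ligase HRD1, rose by 0.58 ± 0.07 and 0.45 ± 0.07 (edgeR BH-adjusted p = 0.000108 and 0.000848), and Nploc4, a cofactor of the extraction enzyme p97, by 0.67 ± 0.08 and 0.47 ± 0.08 (edgeR BH-adjusted p = 8.72e-05 and 0.0014). For the translocon and signal peptidase 9 of 21 rose in wild-type cells and 3 in the knockout-labelled ones, with Srprb, a subunit of the signal recognition particle receptor, at 0.66 ± 0.10 and 0.52 ± 0.10 (edgeR BH-adjusted p = 0.000445 and 0.00328). For COPII export 4 and 3 of 12 rose, led by Sec13 at 0.76 ± 0.10 and 0.41 ± 0.10 (edgeR BH-adjusted p = 0.000157 and 0.0132). The list medians were 0.14, 0.19 and 0.14 in wild-type cells and 0.10, 0.13 and 0.17 in the knockout-labelled ones, all below those of the 10 members. No other gene of these 3 lists was called lower by edgeR, DESeq2 or limma-voom, and at an unadjusted p under 0.05 in edgeR 1 gene of degradation and 1 of the translocon were lower in knockout-labelled cells.

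Some chaperones outside the ER were higher after docetaxel as well. Of 24 cytosolic and mitochondrial chaperones, 12 were higher and 1 lower in wild-type cells after docetaxel, with a median of 0.31, and 6 were higher in knockout-labelled cells, with a median of 0.10. There edgeR called 0 lower, with 3 at an unadjusted p under 0.05, 2 by DESeq2 and 1 by limma-voom. Dnaja1, a cofactor of cytosolic HSP70, rose by 0.81 ± 0.09 and 0.44 ± 0.09 (edgeR BH-adjusted p = 4.46e-05 and 0.0047). The number higher moved between 7 and 13 in wild-type cells and between 2 and 7 in knockout-labelled cells over the alternatives. Of 11 tested genes of ER calcium handling, docetaxel raised 2 and lowered 3 in wild-type cells and raised 2 and lowered 1 in knockout-labelled cells. Orai1, the plasma membrane channel that refills the ER store, rose in both, by 0.88 ± 0.13 and 0.83 ± 0.13 (edgeR BH-adjusted p = 0.000412 and 0.000847), and Itpr3, an ER release channel, fell in both, by 0.50 ± 0.13 and 0.49 ± 0.13 on the log2 scale (edgeR BH-adjusted p = 0.00905 and 0.0162).

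**Figure D4:**
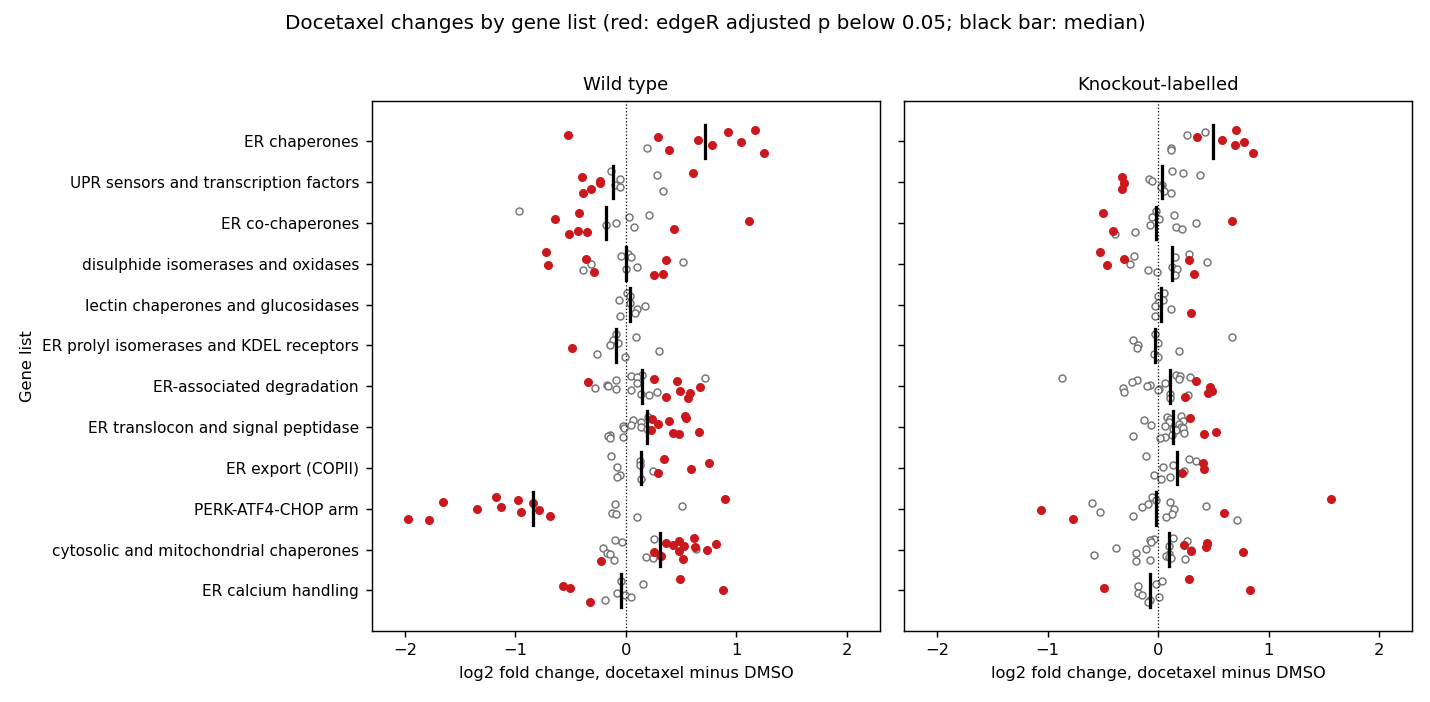
Log2 fold change for docetaxel minus DMSO (horizontal axes) of every tested gene of the 12 lists (rows) in wild-type (left) and knockout-labelled cells (right), with red points for an edgeR BH-adjusted p below 0.05 and a black bar at each list's median. The median of the 10 ER chaperone genes lies at 0.72 and 0.50, and that of the PERK-ATF4-CHOP list at −0.84 and −0.02.

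The other lists were counted between the genotypes in the same way. Under DMSO, where 6.60% of all tested genes were called higher and 9.20% lower, the sensors and transcription factors had 1 of 12 higher and 5 lower in knockout-labelled cells, degradation 2 of 22 higher and 2 lower, and cytosolic and mitochondrial chaperones 4 of 24 higher and 4 lower. Lower calls alone were found in the translocon (5 of 21), COPII export (4 of 12), oxidative folding (4 of 15), the prolyl isomerases and KDEL receptors (4 of 9), the co-chaperones (2 of 13) and the lectin chaperones and glucosidases (1 of 8). In these 6 lists DESeq2 and limma-voom also called 0 higher, and at an unadjusted p under 0.05 in edgeR 1 gene each of COPII export, the co-chaperones and the lectin list was higher. After docetaxel, against 2.50% of all tested genes higher and 3.39% lower, no list had more than 1 higher or 4 lower. Sec24d, a cargo adaptor of COPII coats, was lower in knockout-labelled cells under both treatments, at −1.10 ± 0.12 and −0.91 ± 0.12 (edgeR BH-adjusted p = 4.41e-05 and 0.0004). Selenok, a selenoprotein of the degradation machinery, was lower under both as well, at −0.51 ± 0.07 and −0.56 ± 0.07 (edgeR BH-adjusted p = 0.000359 and 0.0003). Besides Atf4 and Asns, edgeR called 0 listed genes in the interaction, with at most 3 per list at an unadjusted p under 0.05 outside the PERK-ATF4-CHOP arm. In those lists DESeq2 called 1, a cytosolic or mitochondrial chaperone, besides its 2 members, and limma-voom called 0.

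Genes that carry the printed elements were then counted by sequence alone. Of the genes with ERSE or ERSE-II in the promoter, 26 were tested, and in wild-type cells docetaxel raised 9 (34.6%) and lowered 3 (11.5%), against 16.4% and 14.8% of the 10445 tested genes with a promoter in the table. Leaving out the members, 20 genes had 4 raised (20.0%) and 2 lowered (10.0%). The 4 were Dnajb11, Dnajc3, Syvn1 and Spats2l, and the 2 were Acacb and Pan2, of which Dnajc3, Spats2l, Acacb and Pan2 are named here because their values were seen. In knockout-labelled cells 6 were raised and 3 lowered with the members, and 3 and 3 without, against 10.1% and 7.44%. Among the 6 members with a full element, the docetaxel changes in wild-type cells ran from −0.53 for Herpud1, the one with ERSE-II, to 1.17 for Calr, and Sdf2l1, with no full element in the window, was at 1.25.

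The genes nearest to the members' shared profile over the 12 libraries were then listed, by the root mean square difference between standardised log2 CPM values. The 15 nearest outside the set were Asna1, Smg5, Ppm1f, Nop9, Myo10, Rab43, Tatdn2, Gtf2f2, Tmem120a, Hmgxb3, Cog8, Csf3, Rab7, Ddx24 and Orai1, at distances from 0.197 for Asna1 to 0.305 for Orai1, and Orai1 was the 1 gene among them on a list. The members themselves lay between 0.222 for Calr and 0.624 for Hsp90b1, except Herpud1 at 1.37. Each member is part of the mean it is measured against, so these distances do not compare with those of outside genes. The measure takes the shape of a profile and not its size: Csf3, a granulocyte growth factor gene, changed by 3.04 in wild-type cells and 2.86 in the knockout-labelled ones on the log2 scale, and Rab43 by 0.24 and 0.25. The genes nearest to Herpud1, a list added after its values were seen, were Il17re at 0.212, Mcam, Scpep1, Tmem43 and Creld1.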

How the data were processed

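RNA of 12 cultures was depleted of ribosomal RNA, reverse transcribed with random hexamers and sequenced in pairs of 150 bases, per the labels' protocols. The submitters' processing notes name featureCounts 1.4.6-p5 (Subread), STAR 2.5.1a and bcl2fastq. No source used here gives the authors' build, annotation, strand setting or treatment of multiply mapped reads. Raw counts per gene symbol were deposited. Of 40757 entries, 351 exact repeats (0.907% of counts) were removed. All 40406 symbols matched GENCODE M21 on GRCm38, which gave positions, lengths and GC content.

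The members and lists were chosen with earlier results of these data known. Genes were filtered with filterByExpr, scaled by TMM and tested in R 4.3.3 with edgeR 4.0.16: 1 quasi-likelihood model with 4 group means over 12 libraries, two-sided, Benjamini-Hochberg (BH) adjustment over 15538 genes per contrast, called at 0.05. Each SE is the log2 fold change over the root of its F statistic. Libraries of a group differed by chi-square values of 7.79 to 155 per degree of freedom, so none was a repeat. Named genes are the members, Itgb3, up to 3 called genes per list and contrast with the largest change and at least 5 CPM, Ern1, Eif2ak3, Atf6, Xbp1, Atf4, Ddit3 and Dnajb9, and the 15 genes nearest to the members' profile; Canx, Ppp1r15a, the promoter-element genes named as such and the genes nearest to Herpud1 were added later, with values known. As 23 alternatives, the fits were repeated with DESeq2 1.42.0, limma-voom (limma 3.58.1), RLE and upper-quartile scaling, no filter, at least 1 CPM in 3 libraries, the 6 libraries of a contrast, replicate number as a block, GC correction by lowess (span 0.3), both together, omission of the 2 Gm23935-rich libraries, and of each library. They were applied to the lists and other named genes after seeing the data. The scripts were tested on simulated counts.
Creb3l1, Fkbp10, Atp2a3 and Rcn3 did not pass the filter on low counts. P-values measure the spread between the cultures of this experiment.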

Additional observations from a re-analysis of the deposited data

Results flagged for a closer look

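For 3 genes the docetaxel effects of the 2 genotypes stood apart, for Asns and Atf4 by the test of the difference and for Herpud1 by opposite directions. In each, every wild-type docetaxel library was below the wild-type DMSO libraries. For Asns the change was −1.18 on the log2 scale in wild-type cells and −0.06 in the knockout-labelled ones, a difference of 1.12 (edgeR BH-adjusted p = 0.00856). The call was lost in 2 of 22 alternatives, without knockout-labelled DMSO library 3 (edgeR BH-adjusted p = 0.0645) or knockout-labelled docetaxel library 3 (0.0504). For Atf4 the changes were −0.97 and −0.02, a difference of 0.96 (edgeR BH-adjusted p = 0.022), lost in 7 of 22 alternatives, all of them with libraries left out, at edgeR BH-adjusted p-values from 0.0558 to 0.129. For Herpud1 the changes were −0.53 and 0.26, with the libraries of the 2 genotypes moving opposite ways. The change in knockout-labelled cells was not called (edgeR BH-adjusted p = 0.0993). The difference of 0.79 was tested and missed the threshold (edgeR BH-adjusted p = 0.0529), but was called in 8 of 22 alternatives, with adjusted p-values from 0.00025 with DESeq2 to 0.369 in edgeR without the 2 Gm23935-rich libraries.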

How the results depend on the processing

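Of 1140 log2 values of the members under alternatives, 1073 kept direction and side of the threshold, 9 lost a call, 34 gained one and 24 changed sign. The causes were not tested. Sign changes, all of uncalled values, are given as log2 values for the members and, beyond the 24, for other named genes. Under the GC correction alone and with the replicate block, Hsp90b1 was at 0.0147 and 0.0145 and Calr at −0.0108 and −0.0106 between genotypes under DMSO, Hsp90b1 at −0.0078 and −0.0074 after docetaxel and at −0.0225 and −0.0219 in the interaction, Atf4 at 0.0681 and 0.0673 for docetaxel in knockout-labelled cells and Eif2ak3 at 0.0124 and 0.0109 in the interaction. Without the 2 Gm23935-rich libraries, Calr was at −0.048 under DMSO, Hspa5 at 0.0063, Manf at 0.0024 and Eif2ak3 at 0.0921 in the interaction, and Dnajb9 at 0.0115 for docetaxel in wild-type cells. With single libraries left out, values that changed sign ran, between genotypes under DMSO, from −0.0511 to 0.0756 for Calr, −0.0901 to 0.0147 for Pdia6, −0.0863 to 0.0551 for Manf and −0.0909 to 0.0361 for Itgb3. After docetaxel they ran from −0.0865 to 0.0826 for Hsp90b1, −0.2429 to 0.0149 for Sdf2l1, −0.2296 to 0.0245 for Creld2, −0.128 to 0.0309 for Atf4 and −0.0109 to 0.127 for Atf6. For docetaxel they ran from −0.1703 to 0.0114 for Dnajb9 and −0.1241 to 0.052 for Eif2ak3 in wild-type cells, and from −0.0949 to 0.063 for Atf4 and −0.0685 to 0.3011 for Ddit3 in knockout-labelled cells. In the interaction they ran from −0.0418 to 0.1281 for Hsp90b1 and −0.1391 to 0.0372 for Eif2ak3.

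Members called between genotypes were 2 under DMSO with no filter, and after docetaxel 4 with DESeq2 and 4 with upper-quartile scaling. In the interaction 2 were called with DESeq2, and 1 each with RLE scaling, no filter and the GC correction. Over all genes, 1267 in place of 2454 were called under DMSO and 565 in place of 915 after docetaxel without the Gm23935-rich libraries. The interaction called 17 genes, against 165 with DESeq2, 8 with limma-voom, 421 with no filter, 42 with the GC correction and 4 without the Gm23935-rich libraries. With single libraries left out, the docetaxel calls among members ran from 8 to 9 in wild-type cells and 5 to 6 in the knockout-labelled ones, and the genotype calls from 1 to 4 after docetaxel and from 0 to 2 in the interaction. All genes called ran from 1311 to 2881 for docetaxel in knockout-labelled cells, 1264 to 3273 under DMSO, 467 to 1083 after docetaxel and 2 to 431 in the interaction, the last without wild-type DMSO library 1.

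With the replicate number as a block, the interaction called 1 member, Herpud1 (edgeR BH-adjusted p = 0.0116), and 48 genes, and with the GC correction 2 members and 121 genes, with 1460 genes after docetaxel; docetaxel called 9 members in wild-type cells and 7 in the knockout-labelled ones, where Herpud1 was at 0.26 (edgeR BH-adjusted p = 0.0371). The numbers were not taken to pair the samples: deviations of same-numbered libraries correlated from −0.272 to 0.346 (median 0.047, 18 pairs), and of others from −0.358 to 0.302 (median −0.024, 36 pairs). With 3 libraries a group, differences of a member well beyond its SE could go uncalled. Calr in the interaction, at −0.46 ± 0.12, was such a case (edgeR BH-adjusted p = 0.191). The lack of a call does not show that a difference is absent.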
